A study of Bos taurus with 4 samples.

Results

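SLC2A11 is the gene listed as ENSBTAG00000018647, 1 of the 24616 bovine genes in the deposited table and 1 of the 17307 genes with a read in at least 1 library. The row was taken by its Ensembl identifier, which the study pairs with the symbol SLC2A11 in its list of the genes that differed most between diets. The gene was therefore chosen for the difference between grass-fed and grain-fed steers in these same libraries, and its levels are given below as a description, with no test. That list runs from the lowest FDR of a model that also estimated the variation of each gene. A small spread within the diets could therefore favour the choice too. Ruminal wall RNA came from 4 Aberdeen Angus steers of 1 closed herd, 2 fed grazed alfalfa with bailage in winter and no grain (Grass_104 and Grass_222) and 2 on a conventional ration of silage and shelled corn with soy bean and trace minerals (Grain_184 and Grain_224). All steers shared 1 diet before weaning, and each gave 1 library. Grain-fed steers reached market weight at around 14 months of age and grass-fed steers took about 200 additional days, so diet and age cannot be told apart.

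SLC2A11 encodes GLUT11, a member of the GLUT family of facilitative hexose transporters. These proteins carry sugars such as glucose or fructose across the cell membrane down a concentration gradient, without the sodium gradient that drives the SGLT cotransporters of the SLC5A family. GLUT11 belongs to the class of the family that also holds the fructose transporter GLUT5 and the urate transporter GLUT9. In the rumen, microbes ferment most dietary sugar to short-chain fatty acids, which the stratified epithelium of the wall absorbs. Connective tissue, vessels and smooth muscle lie beneath this epithelium.

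The authors deposited pseudo-counts, which are read counts adjusted in edgeR to one common library size, so that a value is on the scale of reads. The whole reads behind them were recovered by inverting the adjustment, and a level in CPM, relative to all reads on genes in the library, was computed from them. The libraries held 5242466 to 9030027 reads on genes, and both grain-fed libraries were deeper than both grass-fed libraries. Grass_222 stood apart from the other libraries. Over the 13445 genes that averaged 1 CPM or more, the median absolute difference on the log2(pseudo-count + 1) scale was 0.94 between Grass_222 and Grass_104, 1.01 between Grass_222 and Grain_184 and 0.99 between Grass_222 and Grain_224. It was 0.59 and 0.58 between Grass_104 and the grain-fed steers Grain_184 and Grain_224, and 0.38 between the grain-fed steers. For this reason the difference between the diets and the ratio in reads are also given without Grass_222.

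SLC2A11 was read in all 4 libraries and was far higher in both grass-fed steers. Grass_104 had 91 reads and Grass_222 had 151 reads, whereas Grain_184 and Grain_224 had 4 reads each. As a level, this was 17.4 CPM in Grass_104, with an exact binomial (Clopper-Pearson) 95% interval of 14.0 to 21.3, and 24.3 CPM in Grass_222, with an interval of 20.6 to 28.5. The level was 0.450 CPM in Grain_184 (interval 0.123 to 1.15) and 0.443 CPM in Grain_224 (interval 0.121 to 1.13). The grass-fed steers were thus above the grain-fed steers without overlap, and the counting intervals of the diets did not overlap either. The intervals cover counting error only. A floor of 3 reads was 0.338 CPM in Grain_184 and 0.332 CPM in Grain_224, so the 4 reads of each grain-fed steer lay just above it.

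**Figure D1:**
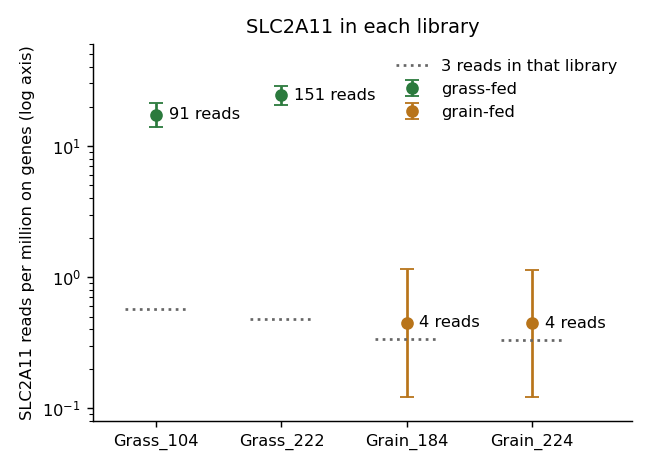
Level of SLC2A11 in each library, in CPM on a log axis, with the exact 95% binomial interval of the counting error as bars and the level that 3 reads would give as a dotted line. The grass-fed steers sit at 17.4 and 24.3 and the grain-fed steers at 0.450 and 0.443, just above the dotted lines.

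On the deposited scale the pseudo-counts were 131 in Grass_104 and 161 in Grass_222, but 3.23 in Grain_184 and 3.19 in Grain_224. The grass-fed mean was 146 ± 21.1 (SD, n = 2). The mean of the grain-fed steers was 3.21 ± 0.0276 (SD, n = 2), and the ratio of the means was 45.6. The lower grass-fed value was 40.7 times the higher grain-fed value. On the log2(pseudo-count + 1) scale, which understates the change of a gene at a low level, the difference between grass-fed and grain-fed steers was 5.12. Its standard error from the spread within the diets was 0.15. The small grain-fed SD comes from the equal number of 4 reads in each grain-fed library and leaves out their counting error. It and the standard error therefore understate the uncertainty. The difference was 4.97 for Grass_104 and 5.27 for Grass_222, each set against the mean of the grain-fed steers. Grass_104, whose library was closer than Grass_222 to the grain-fed libraries over all genes, also had a high level of SLC2A11. Both grass-fed values were part of the contrast by which the gene was chosen.

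Among the 17307 genes with a read, 24.3% were higher in grass-fed steers without overlap on the deposited scale, and 18.6% were so in CPM of whole reads. With the further demand of a 16-fold or larger ratio of the means, these shares were 7.47% and 1.98%. On the deposited scale, a grass-fed library without a read can hold a small value above 0. It then lies above grain-fed values of 0, which raises the shares on that scale. SLC2A11 met both criteria on both scales, but the gene was chosen by this contrast and nothing is read from its place among these genes. With 2 animals against 2, the smallest p that a two-sided exact permutation test of 1 gene could give is 0.333.

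The size of the ratio was limited by the few reads in grain-fed steers. By whole reads, 242 reads in the grass-fed group against 8 reads in the grain-fed group gave a ratio of 47.3 per read on genes, with an interval of 23.6 to 111 for the counting error. Without Grass_222 the ratio was 38.9 (interval 18.9 to 92.8), and without Grass_104 it was 54.4 (interval 26.9 to 128). Leaving out Grain_184 or Grain_224 left 4 grain-fed reads and ratios of 47.7 and 46.9, and widened the intervals to 18.4 to 176 and 18.1 to 174. Thus a ratio under 18.1 lay outside each of these intervals, while the upper bound was hardly fixed by the reads. The intervals take the reads of a diet together and leave out variation between steers, so they set no bound for other animals.

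SLC2A11 stood in the middle of the expressed genes in grass-fed steers and near the bottom in grain-fed steers. The position was taken by the reads of each gene and not per length, as gene lengths of the assembly used for counting were not used here, so it is a position in reads and not in transcripts. By deposited value, 59.0% of the 16039 genes above 0 were lower in Grass_104 and 66.4% of 16039 were lower in Grass_222. In Grain_184 9.03% of the 14842 genes above 0 were lower, and in Grain_224 9.75% of 15371. Over the 13222 genes with 1 CPM in 2 or more libraries, these shares were 4.05% in Grain_184 and 2.44% in Grain_224. SLC2A11 passed this filter through its grass-fed levels alone, and the filter leaves out many genes of low level. Its low place in grain-fed steers among these genes was therefore set in part by the filter. In a grass-fed library, a gene without a read had a small value above 0 if the other grass-fed library had a read. In the grain-fed libraries such a gene stood at 0. The same position was therefore also taken over genes with a read. Of the 13706 genes with a read in Grass_104, 6570 had more reads than SLC2A11 and 44 had the same number. In Grass_222 5369 of 15244 genes had more reads and 32 had the same number. In the grain-fed steers, 13381 of 14842 genes in Grain_184 and 13719 of 15371 in Grain_224 had more reads. The share of genes with fewer reads was 51.7% in Grass_104 and 64.6% in Grass_222, but 8.27% in Grain_184 and 9.24% in Grain_224.

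**Figure D2:**
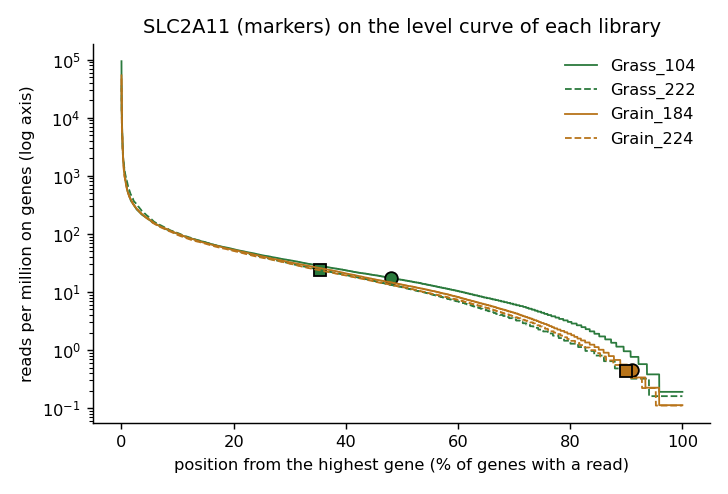
Level of every gene with a read, in CPM on a log axis, against its position from the highest gene in that library as a percentage, with 1 curve per library and SLC2A11 as a marker on each. The markers of the grass-fed steers lie near the middle of the curves and those of the grain-fed steers lie on the low tail, where a level is set by a few reads.

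The 2 grass-fed steers agreed more closely in SLC2A11 than in most genes of like level. The value in Grass_222 was 1.23 times that in Grass_104 on the deposited scale, an absolute log2 difference of 0.29. Of 1196 other genes whose mean log2 value in grass-fed steers lay within 0.25 of that of SLC2A11, 20.2% had a smaller difference between these steers. Their median difference was 0.73, with quartiles of 0.37 and 1.43, and 6.77% of them differed by at least 8-fold. Between Grass_104 and Grass_222, the ratio of SLC2A11 was within the counting error when set against the effective library sizes behind the pseudo-counts, at 1.23 with an interval of 0.941 to 1.61. It was 1.40 with an interval of 1.07 to 1.84 when set against reads on genes, which excludes 1. On that scale, 33.0% of 1197 genes of like mean had a smaller difference, so the closeness of the grass-fed steers depended on the scaling of the libraries. Such closeness could also favour the choice of the gene, so its place is a description only.

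The 2 grain-fed steers had the same number of reads, which is the closest agreement that whole reads allow. Of 463 other genes with a mean log2 value in grain-fed steers within 0.25 of that of SLC2A11, 0 had a smaller difference, against a median difference of 2.29. This 0 follows from the equal reads, as other genes with 4 and 4 reads tie with SLC2A11 and are not counted as smaller. The number of reads gives little weight to this agreement, and agreement within a diet could also favour the choice of the gene. The ratio of Grain_184 to Grain_224 was 1.02 per read on genes, with an interval of 0.189 to 5.46. In all, 133 genes had 8 reads over the grain-fed steers, as SLC2A11 had, and 13 of them (9.77%) were split into 4 and 4. All 8 reads came from Grain_184 in 30 of these genes and from Grain_224 in 33.

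**Figure D3:**
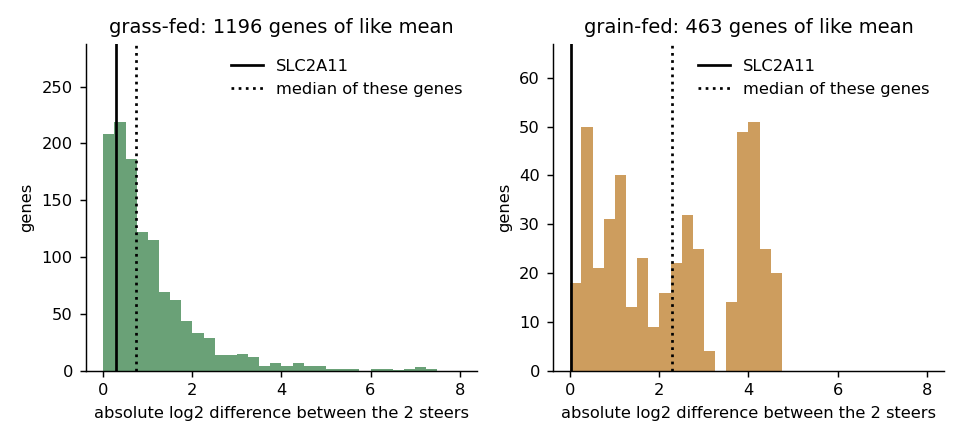
Absolute difference between the 2 steers of a diet on the log2(pseudo-count + 1) scale, for 1196 genes with a grass-fed mean and 463 genes with a grain-fed mean within 0.25 log2 units of SLC2A11 (bars, number of genes). SLC2A11 (solid line) lies at 0.29 in grass-fed steers, left of the median of 0.73 (dotted line), and at 0.013 in grain-fed steers, left of the median of 2.29.

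Genes with a grass-fed level like that of SLC2A11 had as a rule a similar level in grain-fed steers. The 1196 genes of like grass-fed mean had a median pseudo-count of 146 in grain-fed steers, with quartiles of 97.2 and 208. Of these genes, 2 (0.167%) had a lower grain-fed level than SLC2A11. With the like level taken from 1 grass-fed steer, the share was 1.45% without Grass_104 and 1.13% without Grass_222, and it was 0.418% without Grain_224. Conversely, 463 genes of like grain-fed level had a median grass-fed pseudo-count of 2.29, and 1 of them had a higher grass-fed level than SLC2A11. Among the 133 genes with 8 grain-fed reads, SLC2A11 had the most grass-fed reads, 242 against a median of 5. These places use the contrast by which the gene was chosen and are a description only.

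**Figure D4:**
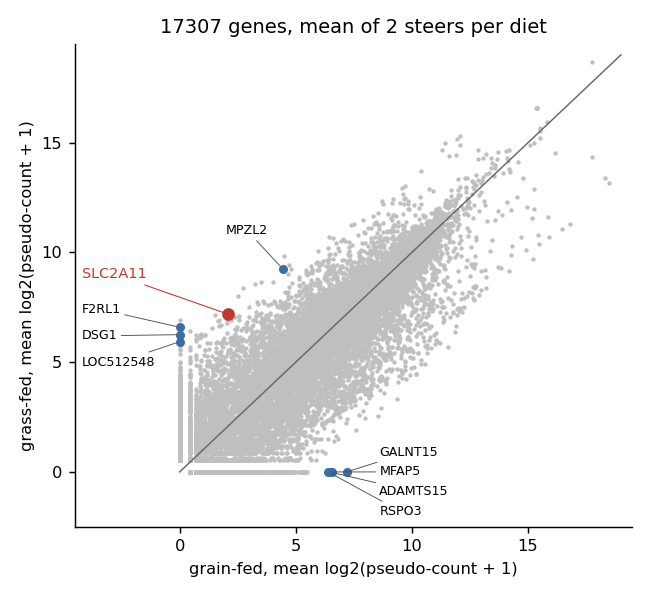
Mean log2(pseudo-count + 1) of the 2 grass-fed steers against that of the 2 grain-fed steers for 17307 genes (grey). The line marks equal means, and SLC2A11 is in red. Other genes from the study's list of top genes are in blue (F2RL1, DSG1, LOC512548, MPZL2, GALNT15, MFAP5, ADAMTS15 and RSPO3). SLC2A11 lies at 7.19 in grass-fed and 2.07 in grain-fed steers, to the right of the genes with no grain-fed read at 0 on the horizontal axis.

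SLC2A11 was more even between Grass_104 and Grass_222 than the other named genes that were higher in grass-fed steers. F2RL1 (ENSBTAG00000034848), a receptor activated by proteases, had 41 reads in the first and 144 in the second of these steers, and its pseudo-count was 2.59 times higher in Grass_222. MPZL2 (ENSBTAG00000033510), an epithelial adhesion protein, was 6.85 times higher in Grass_222. DSG1 (ENSBTAG00000013831), a desmosomal cadherin of stratified epithelium, was 11.6 times higher there, and LOC512548 (ENSBTAG00000014329) was 24.7 times higher. Against these, the value of 1.23 for SLC2A11 was the lowest of the 5 genes. Of the others, MPZL2 alone had reads in grain-fed steers, 25 in Grain_184 and 27 in Grain_224.

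The same measure was taken over all genes higher in grass-fed steers by 16-fold or more in the mean and with no overlap, here called grass-high genes. Besides SLC2A11 there were 1292 such genes, and 2.71% of them had a smaller difference between the grass-fed steers. However, 956 of the 1293 genes had no read in 1 of the grass-fed libraries, where a small value above 0 still lay above the grain-fed values. Among the 336 others with a read in both, 10.4% were closer than SLC2A11, 202 were higher in Grass_222 and 134 were higher in Grass_104. The median of these genes was 0.67 log2 units towards Grass_222, with quartiles of -0.88 and 2.51. In CPM of whole reads, 16.4% of 342 other grass-high genes were closer than SLC2A11. As evenness could favour the choice of SLC2A11, these shares are a description only.

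**Figure D5:**
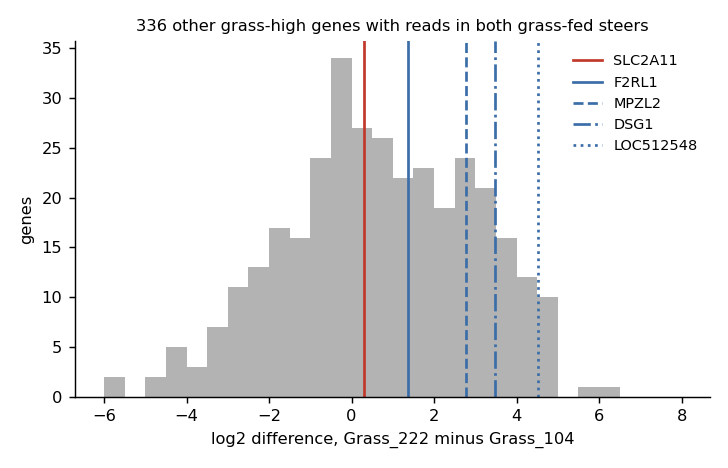
Difference between the grass-fed steers, Grass_222 minus Grass_104 on the log2(pseudo-count + 1) scale, for 336 grass-high genes with reads in both (bars, number of genes). SLC2A11 lies at 0.29, and F2RL1, MPZL2, DSG1 and LOC512548 lie to its right, towards Grass_222.

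A further description asked which of these genes were even within both diets. With each diet within 1.5-fold on the log2(pseudo-count + 1) scale and an average of 1 CPM or more, 10 genes were left, SLC2A11 among them, and 0 of the others had a higher mean in grass-fed steers. All 9 others had a larger ratio of the means than SLC2A11 or no grain-fed read, and 7 of the 10 genes had no grain-fed read. In CPM of whole reads 9 genes were left, again with SLC2A11 as the gene of highest grass-fed mean. These limits were set with the values of SLC2A11 known, and a gene without a grain-fed read counted as even in that diet. Nothing is therefore read from the place of SLC2A11 among these genes.

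The genes most like SLC2A11 were sought by the root mean square distance between profiles of log2(pseudo-count + 1) over the 4 libraries, each centred on its own mean, among 13444 genes that averaged 1 CPM or more. The nearest was ENSBTAG00000005162 at a distance of 0.14, with 30 and 60 reads in Grass_104 and Grass_222 and 1 read in each grain-fed steer. The next was ENSBTAG00000018394 at 0.21, with 51 and 73 reads in Grass_104 and Grass_222, 2 in Grain_184 and 1 in Grain_224. Both had the same order of diets, which follows from the search over these same 4 libraries. Their level was lower than that of SLC2A11. In all 12 genes lay within a distance of 0.5. Their grass-fed reads ranged from 30 to 197 in sum, fewer than the 242 of SLC2A11, and 6 of them had no grain-fed read. Of the named genes, F2RL1 was the nearest at 0.83, in place 58, followed by MPZL2 at 0.89 in place 74, DSG1 at 1.26 and LOC512548 at 1.55. The files used here pair no names with the other identifiers.

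Other hexose transporters could not be set beside SLC2A11. Of 20 genes of the SLC2A and SLC5A families and 6 hexose kinases listed for this purpose, SLC2A11 alone had a name paired with an identifier. For the same reason, 2 of 19 markers of keratinocytes, smooth muscle, fibroblasts, endothelium and leukocytes could be read. The keratinocyte marker DSG1 had 15 reads in Grass_104, but 238 in Grass_222, and 0 in both grain-fed steers. The fibroblast marker MFAP5 (ENSBTAG00000000310), a microfibril protein, had 0 reads in both grass-fed steers, 126 in Grain_184 and 107 in Grain_224. DSG1 was thus higher in grass-fed steers, as SLC2A11 was, and MFAP5 was higher in grain-fed steers, and the part of either cell type in the difference of SLC2A11 was not tested. Within the grass-fed diet, DSG1 was 11.6 times and SLC2A11 1.23 times higher in Grass_222. DSG1 is a single marker, and what these ratios mean for the cell types in each sample was not tested. In a whole piece of ruminal wall, fewer cells of a type and less RNA per cell cannot be told apart.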

How the data were processed

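Ruminal wall RNA of 4 steers was sequenced by the authors at 50 bases per read, 1 library per animal. Reads were trimmed at the start, aligned with Bowtie to UMD3.1 and counted on Ensembl genes by summarizeOverlaps. No source used here gives versions, the counting mode, the strand setting or the annotation release. The signal the authors deposited is the edgeR pseudo-count of each gene. A second deposited table holds the authors' own fold changes, p-values and FDR and was not used.

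Whole reads were sought in Python 3.11.15 with numpy 2.4.6, scipy 1.17.1 and pandas 2.3.3. Effective library sizes and the dispersion of 0.512 were fitted to the grid of low values, and the reads found returned 100% of the values to within 0.01 or 1e-06 of the value. The inversion was first tested on simulated data. The reads on genes numbered 5242466 (Grass_104), 6216014 (Grass_222), 8885034 (Grain_184) and 9030027 (Grain_224). Effective library sizes differ from these by a scaling factor of 0.946, 1.08, 0.992 and 0.988 in that order. One CPM relative to the effective library size, and not to reads on genes, is a pseudo-count of 7.15. A limit of 1 CPM on the mean of deposited values was set as this pseudo-count.

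Values were compared on log2(pseudo-count + 1). No test was run, since the gene was chosen by its difference between the diets. The gene, lists and limits were chosen with earlier results of these data known. The named genes were those the study pairs with identifiers in its list of top genes (1 is not reported here) and the 2 nearest in pattern. The gene list of ARS-UCD2.0 holds 37063 genes, 0 with an Ensembl identifier, so it gave no names. Alternatives were other pseudocounts, scalings, windows and folds, a filter on low values, whole reads and leaving out each library. Those on evenness with whole reads or with reads in both grass-fed steers were added after the data were seen.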

Additional observations from a re-analysis of the deposited data

How the results depend on the processing

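The difference between the diets kept its direction under each alternative tried. It was 4.82 on the log2 scale with a pseudocount of 2 and 5.45 after quantile normalization, against 5.12 as reported, and ranged from 4.97 to 5.27 without single libraries. No paired analysis was possible because the animal numbers are not shared between the diets. With a filter of 1 CPM in 2 or more libraries, the share of genes lower than SLC2A11 was 50.3% in Grass_104 and 59.3% in Grass_222, and 4.05% in Grain_184 and 2.44% in Grain_224. SLC2A11 passed this filter through its grass-fed levels alone, which in part sets its low place in grain-fed steers. By whole reads the share of genes lower than SLC2A11 was 51.7%, 64.6%, 8.27% and 9.24% in the same order. The share of genes of like mean closer between grass-fed steers was 33.0% by whole reads, and between grain-fed steers it was 1.28% with a window of 0.5 log2 units. The share of grass-high genes more even between grass-fed steers was 4.05% with a mean of at least 1 CPM, 6.40% by whole reads with that filter, 16.4% by whole reads alone and 10.4% with a read in both steers. The share of genes of like grass-fed level that were lower in grain-fed steers ranged from 0.167% to 1.45% without single libraries, the highest without Grass_104 and 1.13% without Grass_222. Without centring, 0 genes lay within a distance of 0.5 of SLC2A11, and with a pseudocount of 0.5, 1 of the 2 nearest genes was the same. What caused these shifts was not tested. Of the 41 alternative values, 19 were classed as moved and 22 as the same as reported. Some of the 22 are among those given above. The level in grain-fed steers rests on 4 reads per library, which limits every ratio to it.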

Other observations

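In the RefSeq gene list of ARS-UCD2.0, another assembly than the one used for counting, SLC2A11 has 9 transcripts, and 0 other listed genes overlap it. Its nearest listed neighbours are SMARCB1, a chromatin remodelling subunit, and DERL3, which acts in protein quality control, on one side, and the cytokine MIF and GSTT4 on the other. The deposited table gives 1 value per gene, so levels of single SLC2A11 transcripts were not analysed here.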
